A study of Mus musculus with 8 samples.

Results

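This account covers 9 genes of the 17823 in the counts table, chosen by symbol: the phagocyte NADPH oxidase genes Cybb, Cyba, Ncf1, Ncf4 and Rac2, the superoxide dismutase genes Sod1 and Sod2, and the peroxide-removing enzyme genes Prdx1 and Gpx1. All 9 were abundant enough to be among the 12610 genes tested. They were measured by sequencing of polyadenylated RNA from 8 libraries of macrophages, grown from C57BL/6 mouse bone marrow with 20 ng of M-CSF for 7 days and treated with lipopolysaccharide (LPS, from Escherichia coli O111:B4) at 1 µg/ml. Cells of both groups thus had the same strain, growth factor and LPS, and differed in whether a tdTomato (tdT) reporter of the cytokine gene Il19 was on: 4 libraries are tdT positive and 4 are tdT negative (below, positive and negative), each numbered 1 to 4 and called biological replicates in the labels. The sources used here state neither the age and number of the mice nor the design of the reporter allele, the length of the LPS treatment or the method of separating the cells. No label says that the replicates came from separate mice or cultures, so the tests reflect library-to-library spread, which may be technical.

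The phagocyte oxidase passes electrons from NADPH to oxygen and so makes superoxide, which macrophages and neutrophils use against ingested microbes and as a signal. Its catalytic chain (Cybb) and the smaller chain that stabilises it (Cyba) sit in the membrane, and on activation cytosolic proteins that include the organiser Ncf1, Ncf4 and the small GTPase Rac2 join them. Superoxide dismutases turn superoxide into hydrogen peroxide, Sod1 mainly in the cytosol and Sod2 in mitochondria, and peroxiredoxins such as Prdx1, glutathione peroxidases such as Gpx1 and catalase remove the peroxide.

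The 8 libraries held 49850537 to 58516454 counts over genes. Il19 itself averaged 185 ± 36.6 CPM (read counts scaled by the TMM-normalised library size; SD, n = 4) in the tdT-positive and 12 ± 3.45 CPM in the tdT-negative libraries. The macrophage genes Adgre1, Csf1r and Cd68 averaged 3596, 2077 and 435 CPM in the tdT-positive libraries and 3973, 1946 and 425 CPM in the tdT-negative ones. Of the fixed list of 10 macrophage genes, 2 passed in the blocked fit described below, Mrc1 and Mertk, both higher in the tdT-positive libraries. They averaged 45.2 and 19.0 CPM there and 24.7 and 11.3 CPM in the tdT-negative ones (edgeR with the block, adjusted p = 0.00302 and 0.0109). In that fit 8.03% of all genes tested rose. Markers of other cell types differed as well: 10 summed stromal genes ran from 76.4 to 208 CPM in the tdT-positive and from 349 to 3031 CPM in the tdT-negative libraries, with the highest value in tdT-negative replicate 4. Rn45s and Lars2 took 13.2% of the counts of tdT-positive replicate 3 and at most 0.769% elsewhere.

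Of the 9 genes, Gpx1 and Sod1 were lower in the positive libraries, and the oxidase genes did not pass. Gpx1 was at 164 ± 23.1 CPM in the positive group and 234 ± 33.8 CPM in the negative group, 0.70 times the level, and Sod1 at 73.8 ± 2.96 and 86.0 ± 7.73 CPM, 0.86 times the level. With the reporter group as the only term, 0 of the 9 genes passed an adjusted p under 0.05 (edgeR quasi-likelihood test, Benjamini-Hochberg over all genes tested), beside 0.0238% of all genes tested. Of the 9, 2 had an unadjusted p under 0.05 (Gpx1 and Sod1), beside 2058 of the 12610 genes tested. The DESeq2 Wald test called 1 of the 9 (Gpx1), beside 921 of all 12610, and limma voom called 0, beside 3. Because libraries that share a number deviate alike, a second fit took the number as a block, and there 2 of the 9 passed, both lower, beside 15.8% of all genes tested in either direction and 7.81% lower. The median log2 fold change of the 9 genes in that fit was -0.06, and 0.0051 over all genes tested. Log2 fold changes given below are tdT positive over tdT negative from the fit with the block, with their standard error (SE), unless stated otherwise.

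**Figure D1:**
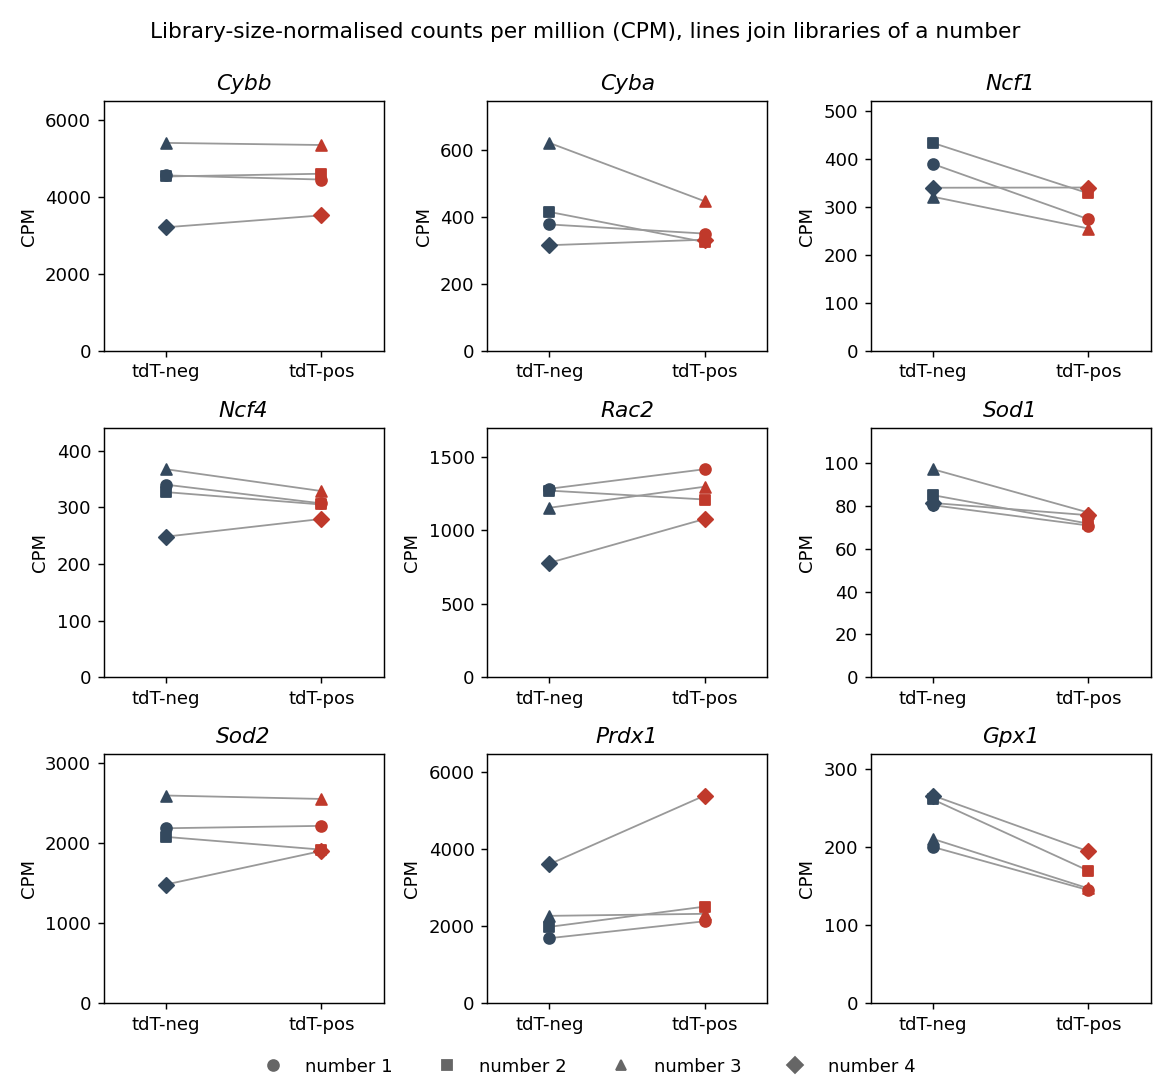
Normalised CPM (vertical axes, from 0) of the 9 genes in the negative and positive libraries, with a line joining the libraries of each number 1 to 4. All 4 lines fall for Gpx1 and Sod1, and for Cybb the libraries of a number lie close together while the numbers differ.

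The promoters of the 2 genes that passed, both lower, are shown beside that of Prdx1, the most abundant of the 9 and the 1 whose CPM was higher in the positive library of all 4 numbers. They come from RefSeq on GRCm38.p6, 250 bases before to 50 after the annotated start, 5′ to 3′ on the gene's strand, and 7 of the 9 genes matched (Ncf4 and Rac2 did not). Capitals mark matches, on either strand, to the antioxidant response element TGACNNNGC, the GC box GGGCGG, the PU box GAGGAA and the NF-kB consensus. Gpx1 is at chr9:108338830-108339129 (plus strand), Sod1 at chr16:90220512-90220811 (plus strand) and Prdx1 at chr4:116685349-116685648 (plus strand).
Gpx1: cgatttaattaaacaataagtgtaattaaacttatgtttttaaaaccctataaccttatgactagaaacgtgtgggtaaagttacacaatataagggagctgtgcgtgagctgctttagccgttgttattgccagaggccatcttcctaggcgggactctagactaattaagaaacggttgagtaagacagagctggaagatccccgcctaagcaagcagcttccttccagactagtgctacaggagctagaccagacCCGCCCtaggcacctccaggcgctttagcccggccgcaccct
Sod1: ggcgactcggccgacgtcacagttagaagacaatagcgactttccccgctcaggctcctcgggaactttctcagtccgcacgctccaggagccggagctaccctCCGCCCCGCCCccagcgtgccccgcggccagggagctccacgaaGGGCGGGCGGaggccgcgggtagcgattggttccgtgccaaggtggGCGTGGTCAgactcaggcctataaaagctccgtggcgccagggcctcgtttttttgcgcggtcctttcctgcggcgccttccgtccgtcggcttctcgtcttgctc
Prdx1: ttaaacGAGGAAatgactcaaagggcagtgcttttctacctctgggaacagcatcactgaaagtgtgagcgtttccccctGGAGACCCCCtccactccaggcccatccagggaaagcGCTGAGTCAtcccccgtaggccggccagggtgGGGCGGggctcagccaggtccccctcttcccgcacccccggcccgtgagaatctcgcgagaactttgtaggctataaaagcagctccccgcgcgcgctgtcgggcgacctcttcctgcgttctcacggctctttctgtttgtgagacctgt
Gpx1 had 1 GC box match and none of the other 3 motifs in this window. Sod1 had 4 GC box matches, overlapping in pairs, and 1 antioxidant element match, and Prdx1 had 1 match to each of the 4 motifs. Of 32841 RefSeq promoters of this length, 12.4% held the antioxidant element, 35.7% the GC box, 28.3% the PU box and 4.51% the NF-kB consensus. Such matches describe letters and do not show that a factor binds.

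Gpx1 encodes the glutathione peroxidase of cytosol and mitochondria, a selenium enzyme that reduces hydrogen peroxide. The gene spans 108338903 to 108340343 of chromosome 9 in GRCm38 (plus strand). Its levels were 145, 170, 147 and 194 CPM in positive replicates 1 to 4 and 200, 261, 210 and 266 CPM in negative replicates 1 to 4. Every positive library lay below every negative one, as for Sod1, which makes 2 of the 9 genes whose groups did not overlap, both lower, beside 5.92% of all genes tested that were lower without overlap. Within the numbers the log2 differences were -0.47, -0.62, -0.52 and -0.45, a narrow range, and 19.6% of all genes tested were lower in all 4 numbers. Gpx1 fell by 0.51 on the log2 scale (SE 0.06, edgeR with the block, adjusted p = 0.00852; 0.111 without the block). The exact two-sided permutation test of its CPM reached p = 0.0286 (unadjusted), the lowest that 70 splits can give. Any gene without overlap reaches this p, so it restates the lack of overlap. With library totals the groups of Gpx1 and of Sod1 overlapped, and by TPM (described below) those of Gpx1, whereas both genes stayed lower in all 4 numbers under these and 2 further scalings (upper-quartile and DESeq2 size factors). The blocked call of Gpx1 passed in all 13 alternative fits with the block, with an adjusted p of at most 0.0404. Corrected for gene length it still fell, by 0.40.

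Sod1, the copper-zinc dismutase gene (chromosome 16, 90220754 to 90226329, plus strand), showed a smaller difference. The positive libraries held 70.9, 71.8, 77.0 and 75.7 CPM for numbers 1 to 4, and the negative ones 80.4, 85.1, 97.2 and 81.4 CPM. The lowest negative value was thus just above the highest positive one. Sod1 fell by 0.22 (SE 0.06, edgeR with the block, adjusted p = 0.0495; 0.234 without the block; exact permutation p = 0.0286). That call was lost without number 1 (adjusted p = 0.140), number 2 (0.154) or number 3 (0.0988), with no filter on low counts (0.0746) and with limma voom (0.0546). After the correction for gene length its log2 fold change was -0.03 (adjusted p = 0.766). The deposited length of Sod1, 648 bases, is the shortest of the 9, followed by Cyba at 759 and Gpx1 at 1047.

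Sod2, the manganese dismutase gene of mitochondria, which LPS is known to induce, was at 2151 ± 306 CPM in the positive group and 2089 ± 460 CPM in the negative group. Its values were 2220, 1923, 2556 and 1905 CPM in the positive replicates, against 2190, 2082, 2599 and 1486 CPM in the negative ones of the same numbers. In numbers 1 to 3 the libraries of a number were close, and number 4 alone differed by a log2 difference of 0.36. The log2 fold change was 0.06 (SE 0.10, adjusted p = 0.708), with a 95% interval from -0.17 to 0.29. Per gene length, as TPM (each count divided by the deposited gene length, then scaled to the same sum in every library), the ratio of Sod2 to Sod1 was 5.31, 4.54, 5.63 and 4.26 in positive and 4.62, 4.15, 4.53 and 3.09 in negative libraries. This ratio was higher in the positive library of every number, with overlap between the groups. Since Sod1 was lower in all 4 numbers, the ratio in part restates that difference, which shrank after the gene length correction.

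Prdx1, a thiol peroxidase gene whose product is recycled by thioredoxin, varied most between numbers. It had 2135, 2516, 2329 and 5402 CPM in positive replicates 1 to 4 and 1696, 1989, 2275 and 3617 CPM in negative replicates 1 to 4. Both libraries of number 4 exceeded all 6 others. Within every number the positive library was the higher one, by log2 differences of 0.33, 0.34, 0.03 and 0.58, beside 21.9% of all genes tested that were higher in all 4 numbers. In number 3 the difference of Prdx1 was -0.15 with library totals and -0.0060 with upper-quartile factors. The log2 fold change was 0.32 (SE 0.10, 95% interval 0.08 to 0.56) and did not pass (adjusted p = 0.0744). It passed in 2 of the 13 alternative fits with the block, after the gene length correction (0.39, adjusted p = 0.0236) and with the DESeq2 Wald test (0.32, adjusted p = 0.00355). Against Gpx1, the ratio of TPM was 10.9, 11.0, 11.7 and 20.5 in positive and 6.26, 5.64, 8.0 and 10.1 in negative libraries. All 4 positive ratios lay above the negative ones, although the closest values, 10.9 and 10.1, come from numbers 1 and 4. By TPM Prdx1 was higher and Gpx1 lower in the positive library of all 4 numbers, so the ratio restates both differences.

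The membrane chains of the oxidase did not pass. Cybb (chromosome X, 9435252 to 9487771, minus strand) had 4452, 4603, 5350 and 3521 CPM in positive and 4560, 4532, 5405 and 3211 CPM in negative libraries. The libraries of a number were within a log2 difference of 0.13, whereas the highest of the 8 libraries was 1.68 times the lowest. Its log2 fold change was 0.03 (SE 0.08, adjusted p = 0.843), and the 95% interval ran from -0.16 to 0.21. Cyba (chromosome 8, 122424776 to 122432930, minus strand) had 350, 325, 447 and 332 CPM against 377, 415, 621 and 315 CPM. It was lower in the positive library of numbers 1 to 3 and slightly higher in number 4, where library totals and TPM put it lower. The median difference of all genes in number 4 was also below 0 there, at -0.08 with library totals and -0.16 by TPM. The log2 fold change of Cyba was -0.22 (SE 0.10, adjusted p = 0.178), was -0.05 after the gene length correction, and passed only without number 4 among the 13 alternative fits with the block (-0.30, adjusted p = 0.0362). The ratio of Cybb to Cyba TPM was 2.03, 2.26, 1.91 and 1.69 in positive and 1.93, 1.75, 1.39 and 1.63 in negative libraries.

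Of the cytosolic subunits, Ncf1 had the largest difference and missed the threshold. Ncf1, the organiser that is phosphorylated on activation (chromosome 5, 134220053 to 134229625, minus strand), had 274, 328, 255 and 340 CPM in positive and 389, 433, 321 and 340 CPM in negative replicates 1 to 4. The positive value was lower in numbers 1 to 3, and both libraries of number 4 were level. Its log2 fold change was -0.31 (SE 0.09, 95% interval -0.52 to -0.09, adjusted p = 0.0616; 0.321 without the block). Without number 4 it fell by 0.40 (adjusted p = 0.00655), and it also passed with library totals (0.0267), upper-quartile factors (0.0367), the gene length correction (0.0423) and the DESeq2 Wald test (0.00426), all with the block. Exons of Gtf2ird2 on the opposite strand overlap 408 bases of Ncf1's exons in GENCODE, and without a stated strand setting their reads cannot be told apart there.

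Ncf4, which binds phosphoinositides, had 307, 305, 329 and 280 CPM in positive and 340, 327, 368 and 248 CPM in negative libraries. Its direction again differed between number 4 and the rest, and its log2 fold change was -0.06 (SE 0.08, adjusted p = 0.632, 95% interval -0.24 to 0.12). Rac2, the GTPase of blood cells that switches the complex on, had 1414, 1208, 1295 and 1076 CPM against 1281, 1268, 1152 and 777 CPM. It was higher in the positive library of 3 numbers, by most in number 4, with a log2 fold change equal to 0.18 (SE 0.10, adjusted p = 0.250, 95% interval -0.05 to 0.41). Neither gene passed in any of the 13 alternative fits with the block or the 15 without it.

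With TMM scaling the log2 difference was highest in number 4 for all 9 genes, beside 37.0% of all genes tested, and this order depends on the scaling. Number 4 was highest for 8 of the 9 with upper-quartile factors (31.3% of all genes) or DESeq2 size factors (32.6%), for 6 with library totals (23.6%) and for 3 by TPM (9.90%). These 4 scalings were compared after the data were seen. With TMM the differences of Cyba, Ncf4, Rac2 and Sod2 in number 4 were 0.07, 0.17, 0.47 and 0.36, and by TPM they were -0.15, -0.05, 0.25 and 0.14. The median difference of all genes in number 4 moved too, from 0.06 with TMM to -0.16 by TPM. For Gpx1 the difference in number 4 was -0.45 with TMM and -0.67 by TPM, where it was the lowest of the 4 numbers, as it was for Cybb and Sod1. Rac2 and Sod2 were thus the genes whose number 4 difference was above 0 and the highest of the 4 under all 5 scalings. Negative replicate 4 had the highest TMM factor of the 8 libraries, 1.15, and the lowest Rac2 and Sod2 of all 8 libraries under each scaling. It also held the highest stromal sum and an osteoclast marker sum of 1401 CPM, against at most 158 CPM in any other library. Its summed level of 10 macrophage markers was 12172 CPM, the lowest of the 8 libraries, against 14465 to 21723 CPM. Its sum of 12 neutrophil genes, 176 CPM, was the lowest of the 8 too. Its sum of 6 monocyte genes, 224 CPM, lay within the 200.01 to 370.0 CPM of the negative libraries. The part of these cells in the oxidase values was not tested. In bulk RNA, fewer cells of a type and less RNA per cell cannot be told apart. Without number 4, Cyba, Ncf1, Sod1 and Gpx1 passed, all lower, in place of Sod1 and Gpx1 alone, and the share of all genes tested that passed was also larger, at 20.2%, with 10.4% lower.

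Neutrophils and monocytes also express the phagocyte oxidase, and markers of both differed between the groups. Of 12 neutrophil genes 8 were tested, of which 4 fell and 3 rose with the block. S100a9 averaged 0.713 CPM in the positive group and 102 CPM in the negative group. Negative replicate 4 had 7.55 CPM of S100a9, against 87.5, 166 and 145 CPM in negative replicates 1 to 3. Prtn3 had 0 counts in the positive libraries and 30, 88, 13 and 19 counts in negative replicates 1 to 4. Elane and Retnlg also had 0 counts in the positive libraries, but at most 3 and 1 in a negative one, too few to compare. S100a8, at 452 CPM in the positive and 241 CPM in the negative group, made up most of the summed level of the list in the positive libraries only. That sum ran from 522 to 789 CPM in positive and from 176 to 865 CPM in negative libraries. All 6 monocyte genes were tested, of which 4 fell with the block (Ly6c2, Plac8, Chil3 and S100a4) and 1, Plac8, also without it. Their summed level ran from 85.9 to 156 CPM in positive and from 200.01 to 370.0 CPM in negative libraries, so the groups did not overlap. The part of neutrophil and monocyte RNA in the oxidase values was not tested.

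Compared per gene length, Prdx1 had the highest level of the 9, followed by Cybb, Sod2, Cyba, Rac2, Ncf4, Gpx1, Sod1 and Ncf1. Over the 8 libraries their mean TPM were 4090, 1918, 1132, 1067, 800.4, 442, 399, 255 and 235. Prdx1 lay above Cybb, Cybb above Sod2, Rac2 above Ncf4 and Gpx1 above Sod1 in all 8 libraries. Sod2 exceeded Cyba in 5 libraries, Cyba exceeded Rac2 in 7, Ncf4 exceeded Gpx1 in 6 and Sod1 exceeded Ncf1 in 6, so these neighbours overlapped. TPM of positive replicate 3 are lowered for every gene by its share of Rn45s and Lars2 counts. Together the 9 genes took 1.07% to 1.37% of the counts of a library.

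**Figure D2:**
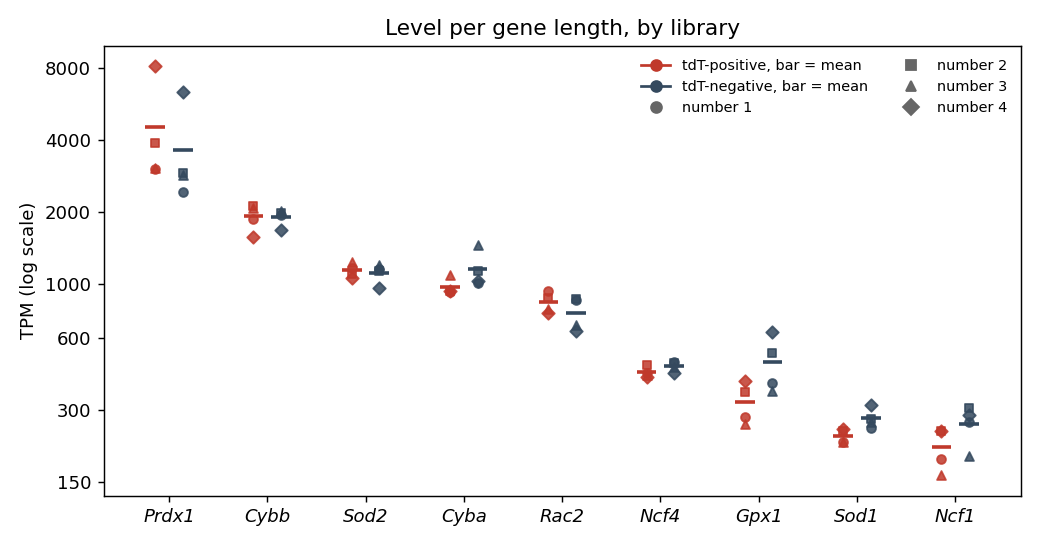
TPM of the 9 genes on a log axis, ordered by their mean over the 8 libraries, with each library as a point, the numbers 1 to 4 as symbols and group means as bars. Prdx1 spans 2430 to 8149 TPM with both number 4 libraries on top, and the group means of Cybb and Cyba, the membrane genes of the oxidase, lie above those of the cytosolic ones.

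The 3 tested genes whose levels followed Cybb most closely were Nadk, Rgs19 and Ptpn7. Their log2 CPM, each centred on its own mean, differed from that of Cybb by a root mean square of 0.04, 0.05 and 0.05 over the 8 libraries. Nadk averaged 417 CPM in the positive group and 420 CPM in the negative group.

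The remaining genes of the pathway were read from fixed lists, with 62 genes in the table and 55 tested. With the block 4 rose, 6 fell and 45 did not pass, or 18.2% called beside 15.8% of all genes tested, of which 8.03% rose and 7.81% fell. Without the block 0 of the 55 passed by edgeR, and 6 had an unadjusted p under 0.05, beside 2058 of all 12610 genes tested. DESeq2 called 4 of the 55, beside 921 of all genes tested, and limma voom called 0, beside 3. The median log2 fold change of the 55 with the block was 0.04. Their share of calls was near that of all genes.

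Among 7 further oxidase subunits and related genes tested, 1 passed with the block (14.3%, beside 15.8% of all genes tested). This was Hvcn1, the proton channel that balances the charge moved by the oxidase. It had 89.4, 94.3, 102 and 121 CPM in positive and 72.8, 75.2, 97.5 and 95.8 CPM in negative replicates, and rose by 0.26 (SE 0.07, edgeR with the block, adjusted p = 0.0404). Hvcn1 was higher in 4 of 4 numbers, by least in number 3, and lost its call when number 1 (adjusted p = 0.134) or number 2 (0.170) was left out, with library totals (0.200) or upper-quartile factors (0.0583), or after the gene length correction (0.0501). Rac1, a small GTPase close to Rac2, was the most abundant of this list, at 309 TPM in positive and 317 TPM in negative libraries. The other oxidases were low: Nox1 averaged 0.710 and 1.27 CPM, and Nox3, Nox4, Noxa1, Duox2 and Duoxa1 were below the filter.

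Of 24 kinases, exchange factors, integrins and other genes of oxidase activation, 1 rose and 2 fell, or 12.5% called beside 15.8% of all genes tested. Vav3, an exchange factor for Rac, rose by 0.34 (SE 0.08, adjusted p = 0.0330), from 24.4 ± 6.48 CPM in negative to 30.3 ± 4.30 CPM in positive libraries. Pak1, a kinase bound by active Rac, fell by 0.38 (SE 0.07, adjusted p = 0.0182), at 33.1 ± 10.6 and 42.3 ± 10.5 CPM in positive and negative libraries. Prkca, a protein kinase C gene, fell by 0.97 (SE 0.27, adjusted p = 0.0499), with 7.25 CPM in negative replicate 4 and 1.74 to 3.56 CPM in the 7 others. Vav3, Pak1 and Prkca passed without number 4, where Prkca fell by 0.60, and not without number 1, 2 or 3 (adjusted p from 0.0511 to 0.148). Library totals and the gene length correction also ended the call of Vav3 (adjusted p = 0.129 and 0.0860), and 4 scaling or filter settings that of Prkca (up to 0.0639). Arhgdib, which holds Rac inactive in the cytosol, and Itgam, an integrin chain, were the most abundant, at 1349 and 1089 TPM in positive and 1498 and 983 TPM in negative libraries.

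The other superoxide-removing gene that passed was Sod3, the secreted dismutase. Sod3 had 0.211, 0.447, 0.649 and 1.08 CPM in positive and 0.987, 1.80, 4.00 and 16.4 CPM in negative replicates 1 to 4. It was lower in every number, with a gap that was widest in number 4, and fell by 2.83 (SE 0.34, edgeR with the block, adjusted p = 0.00852). Ccs, which delivers copper to Sod1, was at 11.2 ± 1.12 CPM in the positive group and 10.9 ± 1.25 CPM in the negative group and did not pass.

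The peroxide-removing enzymes went both ways: of 10 tested beside Prdx1 and Gpx1, 2 rose and 3 fell, beside 8.03% and 7.81% of all genes tested. In the positive library of all 4 numbers 2 of the 10 were higher and 6 lower, beside 21.9% and 19.6% of all genes tested. Cat, which encodes catalase of peroxisomes, rose by 0.46 (SE 0.06, edgeR with the block, adjusted p = 0.00957), with 247, 304, 251 and 438 CPM in positive and 190, 228, 167 and 317 CPM in negative replicates. Like Prdx1, Cat was highest in number 4 of each group, and it was higher in the positive library of all 4 numbers. Prdx6, which uses glutathione, rose by 0.34 (SE 0.06, adjusted p = 0.0153) from 219 ± 51.8 to 275 ± 51.7 CPM. Gpx4, the peroxidase of membrane lipid peroxides, fell by 0.27 (SE 0.07, adjusted p = 0.0339), at 16.5 ± 2.31 and 20.0 ± 3.35 CPM. Prdx6, Gpx4 and Gpx7 passed without number 4 and not without number 1, 2 or 3 (adjusted p from 0.0516 to 0.139), whereas Cat, Sod3 and Gpx8, like Gpx1, passed in all 4 of these fits. Library totals ended the call of Prdx6 (adjusted p = 0.0626), and the gene length correction that of Gpx4 (0.0580).

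Gpx7 and Gpx8, peroxidases of the endoplasmic reticulum, fell by 1.47 (SE 0.29, adjusted p = 0.0189) and 3.85 (SE 0.26, adjusted p = 0.00283). Gpx8 had 5, 10, 8 and 15 counts in positive and 48, 108, 170 and 310 counts in negative replicates 1 to 4, which is 0.0959 to 0.245 and 0.894 to 5.24 CPM. Its groups did not overlap. Gpx7 was low too, at or below 1.84 CPM in every library. All 10 stromal markers fell as well in the same fit, and the order of the negative libraries by Sod3 has the same library on top, replicate 4, as their order by stromal sum. The part of stromal RNA in the values of Sod3, Gpx7 and Gpx8 was not tested. The most abundant of the list were Prdx5, at 5660 TPM in positive and 5545 TPM in negative libraries, and Prdx2, at 229 and 277 TPM.

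**Figure D3:**
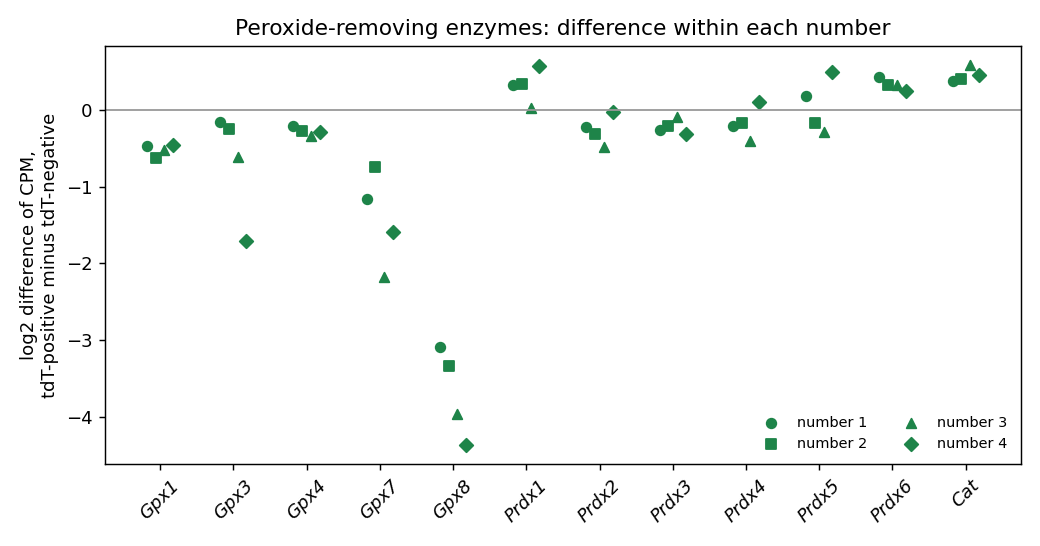
Log2 difference of CPM between the positive and the negative library of each number 1 to 4, for 12 peroxide-removing enzymes. Gpx1, Gpx4, Gpx7 and Gpx8 lie below 0 and Cat, Prdx1 and Prdx6 above 0 in all 4 numbers, whereas Prdx4 and Prdx5 have both signs. Prdx2, Prdx3 and Gpx3, which did not pass, are also below 0 in all 4.

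None of the 12 tested genes of thioredoxin and of peroxiredoxin and glutathione recycling passed in either fit, at an adjusted p under 0.05 by edgeR (0 with an unadjusted p under 0.05 without the block). Of all genes tested, 15.8% passed with the block and 0.0238% without it. Glrx and Txn1 were the most abundant, at 2119 and 945 TPM in positive and 2075 and 1022 TPM in negative libraries.

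**Figure D4:**
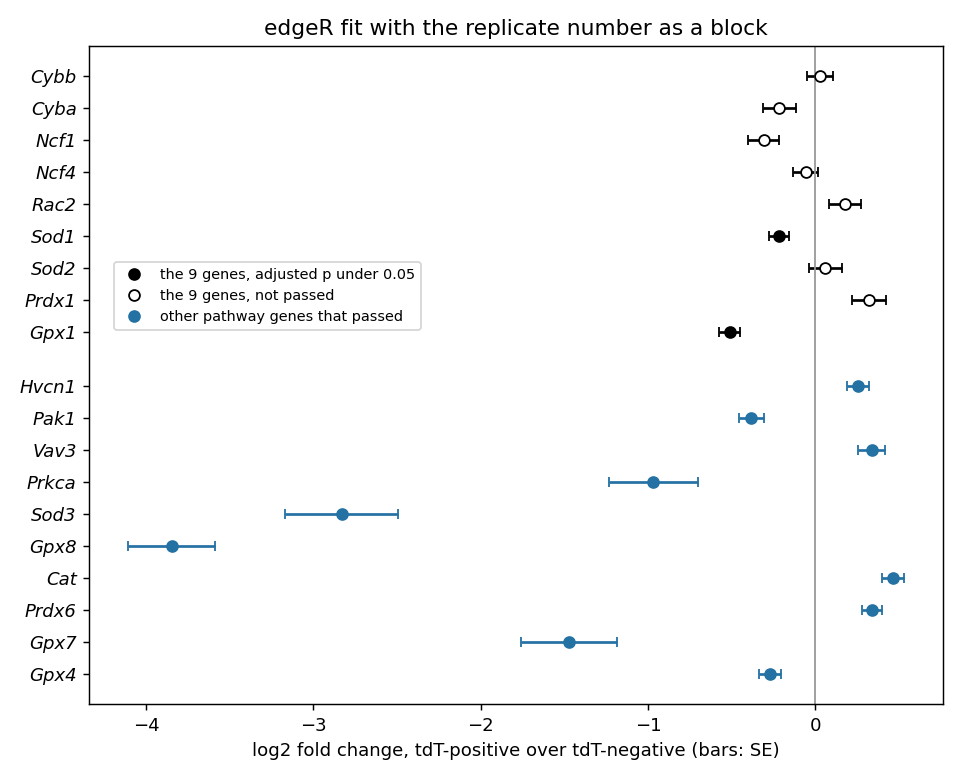
Log2 fold change with its SE (bars), tdT positive over tdT negative, from the blocked edgeR fit, for the 9 genes (black) and the 10 other pathway genes that passed (blue). Filled points have an adjusted p under 0.05: among the 9 genes, these are Gpx1 at -0.51 and Sod1 at -0.22.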

How the data were processed

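The authors deposited raw read counts for each gene beside its Entrez number, symbol and length. Reads were aligned with STAR to mm10, per the submitters' processing notes, and libraries were made with a stranded kit, per the labels' protocols. The labels and headers do not state the counting tool, its annotation or its strand setting. Hence values of overlapping genes and of genes with near-identical copies are uncertain. Each column name occurs in 1 sample's description, and groups come from the titles.

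The filterByExpr filter of edgeR 4.0.16 was applied (minimum count 10, minimum total 15), libraries were scaled by TMM (factors 0.865 to 1.15), and groups were compared by the quasi-likelihood test with no other term. Adjusted p-values (Benjamini-Hochberg) cover the 12610 genes tested. A count of 3 corresponds to 0.0490 to 0.0696 CPM in a library. CPM and TPM were computed here from the deposited counts. Titles share replicate numbers between groups, and no label ties a number to a mouse, culture or day. Same-numbered libraries deviated alike from their group means (log2 CPM, r = 0.63, 0.28, 0.62 and 0.56 over genes), and the blocked fit is therefore given wherever a call differs. No library repeated another: within groups, counts differed with a chi-square of 54.0 to 759 for each degree of freedom. Scripts were tested on simulated data. Alternatives used DESeq2 1.42.0, limma 3.58.1 voom, other scalings and filters, a lowess correction for gene length, removal of Rn45s and Lars2 counts, and fits without single libraries or numbers.

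The text names all 9 genes, the members of the fixed pathway lists that passed with or without the block (up to 6 per list) and the 2 most abundant of each list. Nox1 and cell type markers are also given for their levels, and 1 gene that this rule names is not reported here. The 9 genes and the lists were chosen with earlier results of these data known. Positions are from GENCODE vM21 (GRCm38) and promoters from RefSeq.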

Additional observations from a re-analysis of the deposited data

Results flagged for a closer look

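In all, 3 values of the genes named stood apart from the other 3 libraries of their group by Dixon's test at the 95% level, among 56 groups examined, where chance flags about 1 in 20. Prdx1 in tdT-positive replicate 4 was at 5402 CPM, against 2516 CPM in the next library, and the tdT-negative library of the same number was also the highest of its group. Itgam in tdT-positive replicate 4 was at 1780 CPM, below the next lowest value of 2715 CPM. Prkca in tdT-positive replicate 2 was at 2.51 CPM, against 1.85 CPM in the next library.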

How the results depend on the processing

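Gpx1 kept its call under every alternative with the replicate block, and no alternative changed the direction of Gpx1, Sod1, Cyba, Ncf1 or Rac2. The unblocked fit called 3 of 12610 genes, 0 of the 9 and 0 of 55 other pathway genes. Genes called over all genes, among the 9 and among the other pathway genes were 1998, 2 and 10 with the replicate block, 216, 0 and 1 with no filter, and 921, 1 and 4 with the DESeq2 Wald test. With the block they were 1990, 2 and 9 with DESeq2 size factors, 1418, 3 and 7 with library totals, and 1989, 3 and 10 with upper-quartile factors. They were 2338, 1 and 13 with no filter, 1644, 2 and 8 with the stricter filter, 2504, 4 and 15 with the DESeq2 Wald test, and 2144, 1 and 12 with limma voom, all with the block. The gene length correction gave 1694, 3 and 7 with the block, and removing Rn45s and Lars2 gave 2005, 2 and 10. With the block and both libraries of a number left out they were 1023, 1 and 3 without number 1, 347, 1 and 3 without number 2, 355, 1 and 4 without number 3, and 2535, 4 and 15 without number 4. Leaving out single libraries without the block gave 2 to 456 genes, 0 of the 9 and 0 to 1 other pathway genes, the highest counts without negative replicate 1 (456) and negative replicate 4 (225).

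Values that did not pass changed sign around 0. The log2 fold change of Cybb was -0.057 with library totals and -0.015 with upper-quartile factors, and ran from -0.11 (without negative replicate 4) to 0.13 (without negative replicate 3) when 1 library was left out. With the block Cybb was at -0.051 with library totals, -0.0081 with upper-quartile factors and -0.053 after the length correction. Sod2 was at -0.031 with library totals and ran from -0.093 to 0.16 over the same 2 fits, and with the block it was at -0.018 with library totals and -0.027 without number 4. Ncf4 was at 0.0023 with the block and the length correction. The median over all genes tested was -0.00024 as reported, -0.076 with library totals and -0.035 with upper-quartile factors. With the block it was -0.072 with library totals, -0.030 with upper-quartile factors and -0.012 after the length correction. Prdx1 ran from -0.047 without positive replicate 4 to 0.63 without negative replicate 4. Differences of mean CPM also changed sign: with 1 library left out they ran from -351 to 380.4 for Cybb, from -139 to 232 for Sod2, from -67.8 to 1109 for Prdx1 and from -39.7 to 0.017 for Ncf4. With library totals they were -173 for Cybb and -44.6 for Sod2. The exact test called 2 of the 9 genes at an unadjusted p under 0.05, and 0 with library totals (Sod1 and Gpx1, exact permutation p = 0.0571). Such a p is reached only by genes whose groups do not overlap. Of the 12610 genes tested, 688 were higher and 747 lower without overlap. The exact test called 0 with any 1 library left out, where 35 splits cannot reach the threshold. Changing the scaling shifted the median of all genes as well. The cause of the other shifts was not tested, except that fewer splits end the calls of the exact test.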
